A study of Mus musculus with 21 samples.

Results

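The eosinophil genes are 10 rows of an RNA-seq count table, chosen by symbol among the table's 54532 genes: Prg2, Prg3, Epx, Ear1, Ear2, Ear6, Il5ra, Siglecf, Ccr3 and Alox15. The rule uses symbols and no measured value, though the list was drawn up with earlier results of these data known. All 10 passed the filter on low counts that left 16262 genes for testing. RNA came from c-kit+ bone marrow cells of C57BL/6 mice, taken from femur and tibia after red cell lysis and enriched on CD117 beads, a fraction rich in blood progenitors. The 4 genotypes were WT (n = 3), Asxl1-/- (n = 2), Jak2V617F (n = 3) and Asxl1-/-Jak2V617F (n = 3), where Asxl1 encodes a chromatin regulator and Jak2V617F is the activated kinase of myeloproliferative neoplasms. The sources used here give no Asxl1 allele, no form of the Jak2V617F allele, no Cre driver and no age of the mice. Nor do the labels say whether each library is a mouse of its own; the p-values then reflect only how far these samples spread, and part of that can be technical.

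Eosinophils are granulocytes that mature in the marrow from c-kit+ progenitors, with interleukin-5 as their main growth factor and GATA1, C/EBP factors and PU.1 as lineage factors. Their progenitors already make the granule proteins in bulk: major basic protein (Prg2) and its homologue (Prg3), eosinophil peroxidase (Epx) and the eosinophil-associated ribonucleases (Ear genes). The interleukin-5 receptor alpha chain (Il5ra), the eotaxin receptor (Ccr3) and the sialic acid-binding lectin Siglec-F (Siglecf) lie on the cell surface, and Alox15 encodes a lipoxygenase that oxidises arachidonic acid. Siglecf and Alox15 are also known from some tissue macrophages.

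Libraries held 16198011 to 19196283 counts. Levels are CPM, counts scaled to a common library size after TMM (trimmed mean of M values) adjustment. Asxl1 itself measured 161.8, 163.7 and 160.9 CPM in WT, 195.7, 142 and 132 CPM in Jak2V617F, 89.0 and 97.0 CPM in Asxl1-/-, and 93.4, 95.1 and 100.3 CPM in Asxl1-/-Jak2V617F. Its level was thus lower, not absent, in both Asxl1-/- genotypes, without overlap with the others. With Jak2V617F present, loss of Asxl1 lowered its own transcript by a log2 difference of -0.70 ± 0.12 (edgeR quasi-likelihood test, adjusted p = 0.000748). Without Jak2V617F the difference was -0.80 ± 0.14 (adjusted p = 0.0042), which did not pass the threshold without Asxl1-/- 1 (adjusted p = 0.0703) or with a sex term (adjusted p = 0.136). Kit, which encodes c-kit, was present in every library at 219 to 338 CPM and was not called in any comparison. The progenitor fraction was not alike in other markers. Of the 5 progenitor markers on the list, 3 fell and 1 rose in Jak2V617F against WT, where 29.2% of all genes tested fell and 24.4% rose. Cd34 was at 14.6 to 22.1 CPM in Jak2V617F and at 121 to 143 CPM in WT, and Flt3 at 65.5 to 74.3 and 38.3 to 59.5 CPM. Y-linked transcripts were present in 3 libraries, Asxl1-/- 1, Asxl1-/- 2 and Jak2V617F 2. Jak2V617F was thus the only genotype with both kinds of library. A sex term in the fit therefore rests on Jak2V617F 2 against Jak2V617F 1 and 3, and cannot separate sex from how that library deviates.

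RefSeq promoters (GRCm38.p6, the mm10 build) matched 8 of the 10 genes: Prg3, Epx, Ear1, Ear2, Ear6, Il5ra, Siglecf and Ccr3, but not Prg2 or Alox15. The 3 below are shown because they are the ones among the 8 that hold a GATA motif in the 250 bases before the start, and because Ccr3 and Il5ra depart from Prg3 in the counts. Capitals mark the motif AGATAA and its variants AGATAG and also TGATAA and then TGATAG, on either strand, and each line runs 5′ to 3′ towards the start.
Prg3 (chr2:84987965-84988214, plus strand): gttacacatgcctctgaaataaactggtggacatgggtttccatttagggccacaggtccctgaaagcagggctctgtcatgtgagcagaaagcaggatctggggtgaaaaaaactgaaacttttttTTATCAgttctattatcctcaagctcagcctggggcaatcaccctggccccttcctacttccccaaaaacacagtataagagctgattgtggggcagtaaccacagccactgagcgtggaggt
Il5ra (chr6:106749038-106749287, minus strand): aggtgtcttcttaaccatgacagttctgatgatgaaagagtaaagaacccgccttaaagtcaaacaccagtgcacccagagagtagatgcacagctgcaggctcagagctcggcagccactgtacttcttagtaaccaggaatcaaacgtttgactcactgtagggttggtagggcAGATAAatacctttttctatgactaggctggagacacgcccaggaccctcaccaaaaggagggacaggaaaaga
Ccr3 (chr9:124021721-124021970, plus strand): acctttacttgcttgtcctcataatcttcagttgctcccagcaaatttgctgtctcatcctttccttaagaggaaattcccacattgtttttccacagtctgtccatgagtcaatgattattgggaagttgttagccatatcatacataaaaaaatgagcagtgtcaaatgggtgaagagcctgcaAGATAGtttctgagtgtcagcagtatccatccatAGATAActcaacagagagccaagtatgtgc
Such a motif occurred in 26.5% of all 32851 promoter windows of this length, and in 3 of these 8. Ccr3 held 2 matches, the nearer one ending 25 bases before the start. The C/EBP-type motif TTNNGNAA (N is any base, either strand) was in 6 of the 8 windows (Prg3, Ear1, Ear2, Ear6, Siglecf and Ccr3) and in 36.8% of all windows. The Ear1, Ear2 and Ear6 matches lie at the same aligned place in windows that resemble one another (77.3 to 97.6% identical). They are not 3 separate occurrences, so 6 of 8 against 36.8% does not show that the motif is enriched. The PU.1-type motif GAGGAA (either strand) was in the windows of Siglecf and Ccr3, and in 23.3% of all windows. These matches describe letters in a window and are not measured binding sites.

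The 3 ribonuclease genes, all on chromosome 14, are shown because their promoter windows resemble one another, those of Ear1 and Ear2 most closely. Capitals in the Ear2 and Ear6 lines mark bases that differ from, or are inserted relative to, the Ear1 promoter in a pairwise alignment.
Ear1 (chr14:43819640-43819889, minus strand): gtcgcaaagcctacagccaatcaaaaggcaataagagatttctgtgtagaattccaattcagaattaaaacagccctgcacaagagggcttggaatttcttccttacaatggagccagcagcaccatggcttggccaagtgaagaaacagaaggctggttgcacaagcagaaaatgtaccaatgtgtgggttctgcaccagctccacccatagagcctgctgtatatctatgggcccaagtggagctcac
Ear2 (chr14:44102404-44102653, plus strand): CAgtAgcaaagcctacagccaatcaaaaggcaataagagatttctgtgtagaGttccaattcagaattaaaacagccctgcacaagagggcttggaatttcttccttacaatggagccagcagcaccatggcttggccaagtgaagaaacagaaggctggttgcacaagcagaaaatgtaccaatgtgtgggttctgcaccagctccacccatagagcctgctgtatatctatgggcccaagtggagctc
Ear6 (chr14:51853518-51853767, plus strand): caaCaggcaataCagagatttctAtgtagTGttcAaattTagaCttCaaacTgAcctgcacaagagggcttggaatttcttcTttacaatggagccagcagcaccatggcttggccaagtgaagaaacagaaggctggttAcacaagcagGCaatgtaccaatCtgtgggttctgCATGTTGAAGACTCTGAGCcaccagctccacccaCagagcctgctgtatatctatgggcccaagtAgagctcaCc
Ear1 and Ear2 were identical at 246 of 252 aligned positions (97.6%), Ear1 and Ear6 at 212 of 271 (78.2%), and Ear2 and Ear6 at 211 of 273 (77.3%). The RefSeq starts of Ear1 and Ear6 lie inside the deposited models of those genes. The deposited Ear1 model overlaps the pseudogenes Ear-ps9, Ear-ps12 and Ang-ps2 and the long RNA AC154806.1, and Ear2 overlaps Gm49101. The sources used here do not say how reads that match several places, or either strand, were counted, so the split of reads among Ear genes is uncertain.

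The 3 genes of granule cationic proteins and peroxidase were lowest in Jak2V617F and highest in the 2 genotypes without Asxl1. Prg2 (ENSMUSG00000027073, mm10 chromosome 2, 84980461 to 84983632) was at 203, 108 and 199.5 CPM in WT and at 299 and 405 CPM in Asxl1-/-. It was at 22.0, 23.9 and 24.5 CPM in Jak2V617F and at 429, 239.7 and 336 CPM in Asxl1-/-Jak2V617F. The 3 Jak2V617F libraries lay below every other library, and the 5 libraries of the Asxl1-/- genotypes lay above the 3 WT libraries. In log2 terms Prg2 fell by 2.86 ± 0.29 from WT to Jak2V617F (adjusted p = 3.66e-05) and rose by 3.84 ± 0.30 from Jak2V617F to Asxl1-/-Jak2V617F (adjusted p = 9.45e-06).

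Prg3 (ENSMUSG00000027072, chromosome 2, 84988215 to 84993886), the homologue of major basic protein, begins 4582 bases beyond the end of Prg2. It was at 8.66, 5.63 and 12.0 CPM in WT, 11.8 and 19.9 CPM in Asxl1-/-, 1.18, 1.03 and 0.580 CPM in Jak2V617F, and 18.0, 10.35 and 15.3 CPM in Asxl1-/-Jak2V617F. Its Jak2V617F libraries stood apart below the rest, while WT overlapped both Asxl1-/- genotypes. The next gene beyond Prg3, P2rx3, an ATP-gated channel gene, also fell in Jak2V617F against WT by 2.65 ± 0.45 (adjusted p = 0.000421). Its counts were low, at 5, 5 and 6 in Jak2V617F and 37, 31 and 25 in WT. Slc43a3 on the Prg2 side, a purine transporter gene, had a log2 difference of -0.05 ± 0.08 (adjusted p = 0.609). Neighbours of other members went both ways in this comparison. Trnt1 (0.61 ± 0.11), Pelp1 (0.60 ± 0.10) and Mettl17 (0.49 ± 0.12) rose, and Mks1 (-0.82 ± 0.21), Zfp715, Siglecg, Ccr2 and Alox12e fell.

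Epx (ENSMUSG00000052234, chromosome 11, 87864000 to 87875536) makes the peroxidase that uses bromide to form oxidants. It was at 61.0, 31.5 and 64.0 CPM in WT, 85.0 and 113.5 CPM in Asxl1-/-, 4.08, 3.63 and 6.54 CPM in Jak2V617F, and 136, 74.9 and 132 CPM in Asxl1-/-Jak2V617F. All 5 libraries of the Asxl1-/- genotypes exceeded all 3 WT libraries, and all 3 Jak2V617F libraries were below them. Its change between Asxl1-/-Jak2V617F and Jak2V617F, a rise of 4.59 ± 0.39 (adjusted p = 1.87e-05), was larger than that of any other of the 10 genes, and 61 of the 16262 genes had a higher value.

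**Figure D1:**
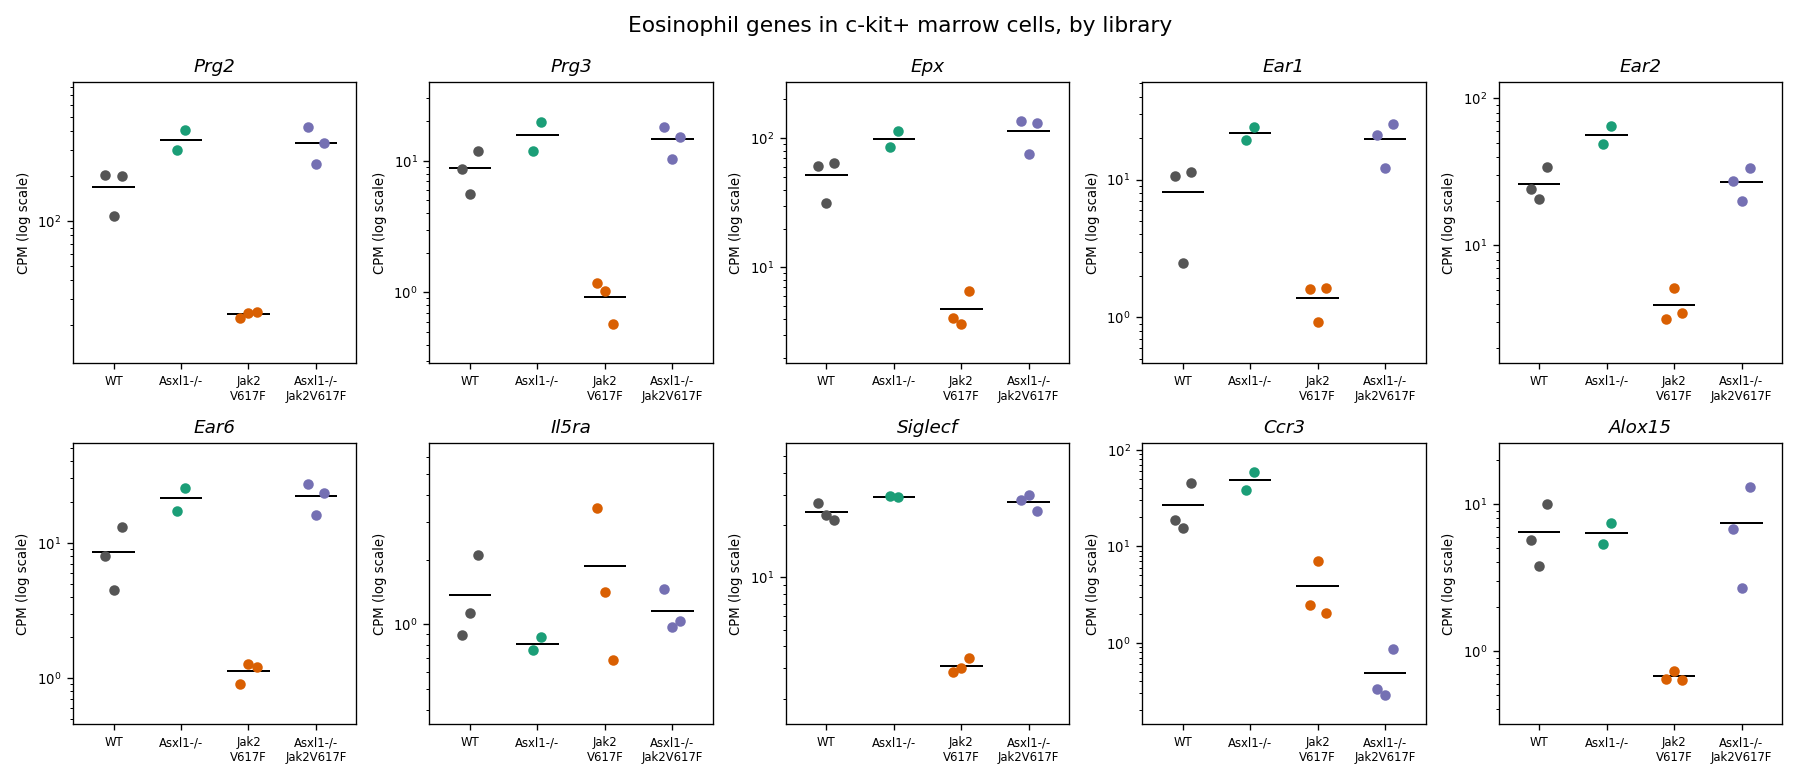
CPM of each of the 10 genes (log axis) in each of the 11 libraries (points), with the mean of each genotype as a bar. In 8 panels the 3 Jak2V617F points lie below all others. Ccr3 is instead lowest in Asxl1-/-Jak2V617F, and Il5ra shows no separation. How many of all genes tested separate in this way was not counted.

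The ribonucleases, antimicrobial and chemotactic granule proteins, followed the same order, with Ear2 apart in 1 respect. Ear1 (ENSMUSG00000072601, chromosome 14, 43818765 to 43875517) was at 10.7, 2.48 and 11.4 CPM in WT, 19.4 and 24.1 CPM in Asxl1-/-, 1.61, 0.931 and 1.63 CPM in Jak2V617F, and 21.0, 12.1 and 25.5 CPM in Asxl1-/-Jak2V617F. WT 2 was the low WT library here, with 44 counts, yet still above Jak2V617F. Ear6 (ENSMUSG00000062148, chromosome 14, 51853699 to 51854643) was at 8.05, 4.50 and 13.1 CPM in WT, 17.1 and 25.6 CPM in Asxl1-/-, 0.912, 1.27 and 1.21 CPM in Jak2V617F, and 27.2, 16.1 and 23.4 CPM in Asxl1-/-Jak2V617F. For Ear6 the 3 levels were fully separate: Jak2V617F lowest, WT between, and both Asxl1-/- genotypes highest.

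Ear2 (ENSMUSG00000072596, chromosome 14, 44102654 to 44103534) was at 24.1, 20.6 and 34.0 CPM in WT, 48.5 and 64.5 CPM in Asxl1-/-, 3.16, 5.14 and 3.48 CPM in Jak2V617F, and 27.2, 19.95 and 33.3 CPM in Asxl1-/-Jak2V617F. Unlike Ear1 and Ear6, its Asxl1-/-Jak2V617F libraries overlapped WT and not Asxl1-/-. Relative to Prg2, both per kilobase of gene model, Ear2 stood at 7.38 to 11.6% in Asxl1-/-Jak2V617F and at 13.8 to 25.1% in the other 8 libraries, without overlap. The same share of Ear6 was 5.62 to 6.19% in Asxl1-/-Jak2V617F and 3.52 to 5.83% elsewhere. Of 11 further genes of the family on the list, 5 were in the table (Ear10, Ear14, Ear-ps2, Rnase2a and Rnase2b), none had enough counts for testing, and their summed level did not exceed 0.338 CPM in any library.

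Siglecf had the smallest standard error of the 10 genes in every comparison. Siglecf (ENSMUSG00000039013, chromosome 7, 43351341 to 43359531) was at 26.9, 22.7 and 21.4 CPM in WT, 29.3 and 29.0 CPM in Asxl1-/-, 2.84, 2.99 and 3.43 CPM in Jak2V617F, and 27.8, 29.7 and 24.2 CPM in Asxl1-/-Jak2V617F. Only Jak2V617F stood apart. There Siglecf fell by 2.94 ± 0.14 (log2) against WT (adjusted p = 1.44e-07) and rose by 3.14 ± 0.15 in Asxl1-/-Jak2V617F against Jak2V617F (adjusted p = 1.3e-07), where just 8 genes of the table had a smaller p. Its neighbour Siglecg, a B cell lectin gene, fell by 1.41 ± 0.23 in Jak2V617F against WT (adjusted p = 0.000398).

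Alox15 (ENSMUSG00000018924, chromosome 11, 70344152 to 70352031) was at 5.64, 3.77 and 9.99 CPM in WT, 5.31 and 7.37 CPM in Asxl1-/-, 0.643, 0.735 and 0.632 CPM in Jak2V617F, and 6.79, 2.69 and 12.9 CPM in Asxl1-/-Jak2V617F. The 3 genotypes other than Jak2V617F overlapped one another widely, and Jak2V617F lay below them all on 12 to 15 counts a library. Alox15 fell by 3.25 ± 0.58 in Jak2V617F against WT (adjusted p = 0.000721).

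Il5ra, the chain that gives the interleukin-5 receptor its specificity, was low in every library. Il5ra (ENSMUSG00000005364, chromosome 6, 106710357 to 106749037) had 13 to 65 counts a library: 0.894, 1.13 and 2.11 CPM in WT, 0.758 and 0.871 CPM in Asxl1-/-, 3.48, 1.42 and 0.685 CPM in Jak2V617F, and 1.46, 0.972 and 1.04 CPM in Asxl1-/-Jak2V617F. Jak2V617F held both the highest and the lowest library, and its range enclosed every other library. Il5ra was not called in any comparison; against WT its log2 difference in Jak2V617F was 0.44 ± 0.52 (adjusted p = 0.505) and changed sign without Jak2V617F 1 (-0.37, adjusted p = 0.538). With so few counts, a difference within this spread was not detectable.

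Ccr3, the receptor by which eotaxins draw eosinophils into tissue, had a different order. Ccr3 (ENSMUSG00000035448, chromosome 9, 124021972 to 124031689) was at 18.8, 15.3 and 45.8 CPM in WT, 38.7 and 58.5 CPM in Asxl1-/-, 2.47, 7.06 and 2.06 CPM in Jak2V617F, and 0.337, 0.286 and 0.854 CPM in Asxl1-/-Jak2V617F, the last on 6, 5 and 14 counts. Jak2V617F was below WT, as for the granule genes, but Asxl1-/-Jak2V617F was lower still and overlapped no other genotype. From Jak2V617F to Asxl1-/-Jak2V617F, Ccr3 fell by 2.98 ± 0.77 in log2 terms (adjusted p = 0.0119; without Asxl1-/-Jak2V617F 1, -2.78 and adjusted p = 0.0514). Against WT it fell by 5.76 ± 0.75 (adjusted p = 0.00683), a call kept in all 18 alternative settings, with 7 genes of the table lower.

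Per kilobase of gene model, Prg2 led in every genotype, at 203 ± 64.1 CPM per kb (SD, n = 3) in WT, 420.2 ± 89.5 (n = 2) in Asxl1-/-, 27.99 ± 1.503 (n = 3) in Jak2V617F and 399.6 ± 113 (n = 3) in Asxl1-/-Jak2V617F. In WT the order below it was Ear2 (36.5 ± 9.68 CPM per kb), Epx (19.1 ± 6.56), Ear1 (11.2 ± 6.78), Prg3 (9.23 ± 3.35), Ear6 (9.06 ± 4.59), Siglecf (8.49 ± 1.04), Ccr3 (8.14 ± 5.09), Alox15 (2.64 ± 1.30) and Il5ra (0.385 ± 0.180). The 5 genes from Ear1 to Ccr3 did not differ beyond their spread. Ccr3 was in the seventh place in Asxl1-/- (14.9 ± 4.28 CPM per kb, n = 2) and in the last in Asxl1-/-Jak2V617F (0.150 ± 0.0961, n = 3). Summed over the 10 genes, the share of all counts was 0.00445 to 0.00511% for Jak2V617F libraries but 0.0225 to 0.0691% for the rest, and Prg2 made up 48.3 to 61.8% of that in every library. In bulk RNA, fewer cells of a type and less RNA per cell cannot be told apart.

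Jak2V617F alone against WT asks what the activated kinase does to these genes. Of the 10 genes 9 fell and Il5ra was not called, where 29.2% of all genes tested fell and 24.4% rose. The median log2 fold change of the 10 was -2.88, against -0.05 over all genes tested. The falls ran from Ear1 (-2.55 ± 0.55, adjusted p = 0.00317) to Epx (-3.46 ± 0.38, adjusted p = 6.73e-05), and Ccr3 fell by 2.78 ± 0.58 (adjusted p = 0.00325). All 9 calls were kept under every alternative, including each left-out library.

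Asxl1 loss on the Jak2V617F background gave the opposite sign for 8 genes. Of the 10, 8 rose and Ccr3 fell, where 24.5% of all genes tested rose and 19.8% fell, and the median log2 fold change was 3.64 against -0.01 over all genes tested. The rises ran from Ear2 (2.76 ± 0.27, adjusted p = 1.52e-05) to Epx, with Ear6 at 4.28 ± 0.41 (adjusted p = 1.24e-05) and Alox15 at 3.46 ± 0.58 (adjusted p = 0.000686). This comparison and that of Jak2V617F with WT share the 3 Jak2V617F libraries.

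Asxl1 loss alone against WT moved fewer of them. Prg2 (1.05 ± 0.29, adjusted p = 0.0318), Ear2 (1.11 ± 0.27, adjusted p = 0.0153) and Ear6 (1.32 ± 0.37, adjusted p = 0.0283) rose, 3 of 10 where 11.3% of all genes tested rose and 11.2% fell. The median of the 10 was 0.9 against -0.01 over all genes tested. Epx was at 0.93 ± 0.36 (adjusted p = 0.0928), Ear1 at 1.41 ± 0.53 (adjusted p = 0.0817) and Siglecf at 0.30 ± 0.14 (adjusted p = 0.151). No call was left without Asxl1-/- 1, Asxl1-/- 2 or WT 2, nor with a sex term, and Ear6 was lost without WT 1. The genotypes differ in Y-linked reads (both Asxl1-/- libraries, 0 of 3 WT libraries), so sex and genotype cannot be told apart between them.

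Both lesions against WT gave 3 rises, Prg2 (0.98 ± 0.27, adjusted p = 0.04), Epx (1.13 ± 0.33, adjusted p = 0.0486) and Ear6 (1.38 ± 0.34, adjusted p = 0.0255), and the fall of Ccr3. Over all genes tested 8.3% rose and 6.76% fell, and the median of the 10 was 0.47 against -0.02. Ear2 differed by 0.03 ± 0.24 (adjusted p = 0.943) and Siglecf by 0.20 ± 0.13 (adjusted p = 0.295). The 3 rises hung on single libraries. Prg2 was lost without Asxl1-/-Jak2V617F 1 or 3, Jak2V617F 1 or 2, or WT 2 or 3. Epx was lost without each library except Asxl1-/-Jak2V617F 2 and Jak2V617F 3, and Ear6 was lost without Asxl1-/-Jak2V617F 1, WT 1 or WT 2. Over all alternatives the highest adjusted p was 0.113 for Prg2, 0.131 for Epx and 0.0684 for Ear6.

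Between the 2 genotypes that lack Asxl1, adding Jak2V617F left 8 of the 10 genes without a call. Ear2 fell by 1.08 ± 0.27 (adjusted p = 0.042) and Ccr3 by 6.62 ± 0.78 (adjusted p = 0.00361), 2 of 10 where 2.22% of all genes tested fell and 3.31% rose. The median of the 10 was -0.08 against 0. Prg2 differed by -0.07 ± 0.29 (adjusted p = 0.921), Epx by 0.20 ± 0.36 (adjusted p = 0.8) and Siglecf by -0.10 ± 0.14 (adjusted p = 0.747), and a p that misses the threshold does not show that the levels are alike. The Ear2 call was lost without Asxl1-/-Jak2V617F 1 or 2, Jak2V617F 1 or 3, either Asxl1-/- library or WT 1, with a highest adjusted p of 0.737 (sex term). Ccr3 kept its call without any single library and lost it with a sex term (-4.99, adjusted p = 0.105). Both Asxl1-/- libraries hold Y-linked reads and no Asxl1-/-Jak2V617F library does, so sex and added Jak2V617F cannot be told apart between these genotypes.

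**Figure D2:**
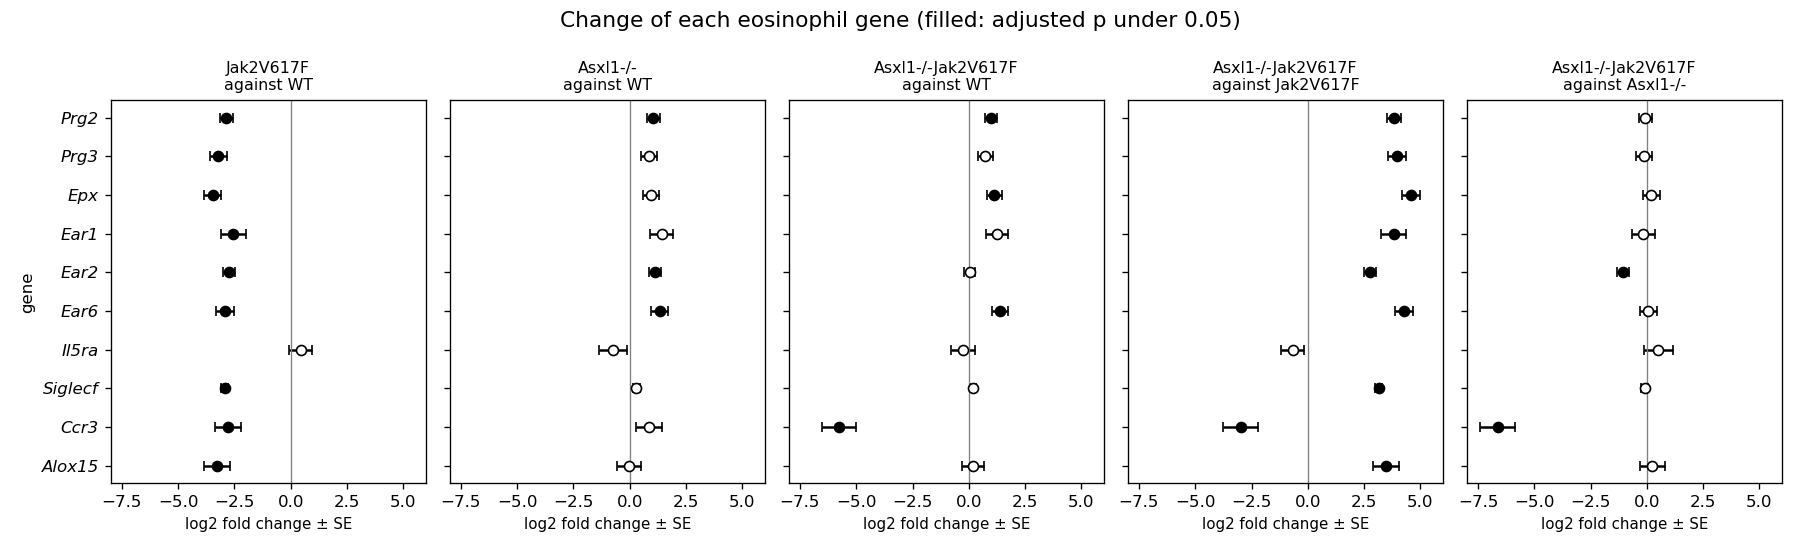
Log2 fold change ± SE of each gene in the 5 pairwise comparisons, filled where the adjusted p is under 0.05. Against Jak2V617F alone, 8 genes lie to the right of 0 in Asxl1-/-Jak2V617F, and Ccr3 lies to the left in each of the 3 panels with Asxl1-/-Jak2V617F.

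The interaction is the effect of Asxl1 loss on the Jak2V617F background minus that on the WT background. It was called higher for 8 of the 10 genes and lower for Ccr3. Over all genes tested 23.7% were called higher and 17.9% lower. Il5ra was not called (0.07 ± 0.81, adjusted p = 0.955). The median interaction of the 10 was 2.81 against 0.1 over all genes tested. Siglecf had a value of 2.84 ± 0.21 (adjusted p = 6.79e-06) and Ccr3 one of -3.85 ± 0.97 (adjusted p = 0.0123). The call of Ear1 (2.40 ± 0.77, adjusted p = 0.0315) was lost in 11 of 17 alternatives, among them 9 of the 11 left-out libraries, all but Asxl1-/-Jak2V617F 2 and WT 2. With a sex term the calls of Epx (adjusted p = 0.0746), Ear6 (adjusted p = 0.0633), Alox15 (adjusted p = 0.131) and Ccr3 (-1.43, adjusted p = 0.456) were also lost. That term is set by Jak2V617F 2 against Jak2V617F 1 and 3, so these losses rest on how that library deviates.

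The libraries show the same division among the genes. Across the 11 libraries, log2 CPM of Prg2 correlated with that of Epx at r = 0.994, Prg3 at 0.989, Ear6 at 0.988, Siglecf at 0.961, Ear1 at 0.96, Ear2 at 0.95 and Alox15 at 0.913. The value was 0.136 for Ccr3 and -0.362 for Il5ra. These are descriptions: the libraries form 4 genotypes, so the values mostly reflect differences between genotypes. The members were then set aside, leaving 10987 protein-coding genes of mean CPM 2 or more. Of these, the 10 most like Prg2 were Csrnp1 (r = 0.977), Atg12, Dtnbp1, Tmed3, 1110059E24Rik, Ndufb7, Pgk1, Arf2, Matn2 and Ankrd63 (r = 0.968).

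Ccr3 resembled another set, looked up after its values were seen. Its 10 nearest genes were Spic (r = 0.988), Itgad, Col14a1, Cd163 (0.986), Axl (0.984), Sdc3, Fcna (0.98), Slco2b1, Vstm4 and Rims3 (0.976). Spic is the transcription factor of iron-recycling red pulp and marrow macrophages, Cd163 the haemoglobin scavenger receptor and Axl a receptor for apoptotic cells. Spic was at 9.17, 9.23 and 30.2 CPM in WT, 22.45 and 35.8 CPM in Asxl1-/-, 3.54, 8.82 and 1.90 CPM in Jak2V617F, and 0.505, 0.629 and 1.159 CPM in Asxl1-/-Jak2V617F. Its highest library in WT (WT 3) and in Jak2V617F (Jak2V617F 2) was also the highest for Ccr3. The choice of Spic by correlation over these same libraries favours such a match, so it adds no separate evidence. Cd163 was at 50.9, 58.8 and 97.8 CPM in WT, 81.8 and 138 CPM in Asxl1-/-, 18.8, 23.2 and 11.8 CPM in Jak2V617F, and 6.06, 8.97 and 7.99 CPM in Asxl1-/-Jak2V617F.

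On the list of 12 monocyte and macrophage markers, 12 fell in Jak2V617F against WT, where 29.2% of all genes tested fell. Against WT, 5 fell in Asxl1-/-Jak2V617F, where 6.76% of all genes tested fell: C1qa and C1qb (complement subunits of macrophages), Mrc1 (the mannose receptor), Adgre1 (F4/80) and Cd68. C1qa fell by 3.97 ± 0.73 (adjusted p = 0.0155) and Mrc1 by 3.95 ± 0.63 (adjusted p = 0.0108). Against Jak2V617F, 6 of the 12 rose in Asxl1-/-Jak2V617F (24.5% of all genes tested rose), among them the inflammatory monocyte gene Ly6c2 by 3.37 ± 0.28 (adjusted p = 9.21e-06) and Ccr2, the next gene beyond Ccr3 on the chromosome at 70260 bases, by 2.65 ± 0.33 (adjusted p = 0.000181). C1qa (-0.81 ± 0.72, adjusted p = 0.405) and Mrc1 (-1.43 ± 0.61, adjusted p = 0.0917) were not called there. The summed level of the 12 was 4626 to 7132 CPM in WT, 7761 to 8350 CPM in Asxl1-/-, 330.6 to 831 CPM in Jak2V617F and 3617 to 3918 CPM in Asxl1-/-Jak2V617F, with none at 0 in any genotype. Leaving out Asxl1-/-Jak2V617F 1 or 2 ended the C1qa call against WT (adjusted p = 0.0539 and 0.0636), and those of C1qb (0.075 and 0.0823), Adgre1 (0.0963 and 0.101) and Cd68 (0.06 and 0.0602). Without WT 3 the calls of C1qb (adjusted p = 0.0594), Adgre1 (0.0879) and Cd68 (0.0565) were lost, and without WT 2 those of C1qb (0.0535) and Adgre1 (0.0725). Adgre1 was also lost with no filter (adjusted p = 0.0815), and the Mrc1 call was kept in every alternative. The part of macrophage RNA in the Ccr3 counts was not tested.

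**Figure D3:**
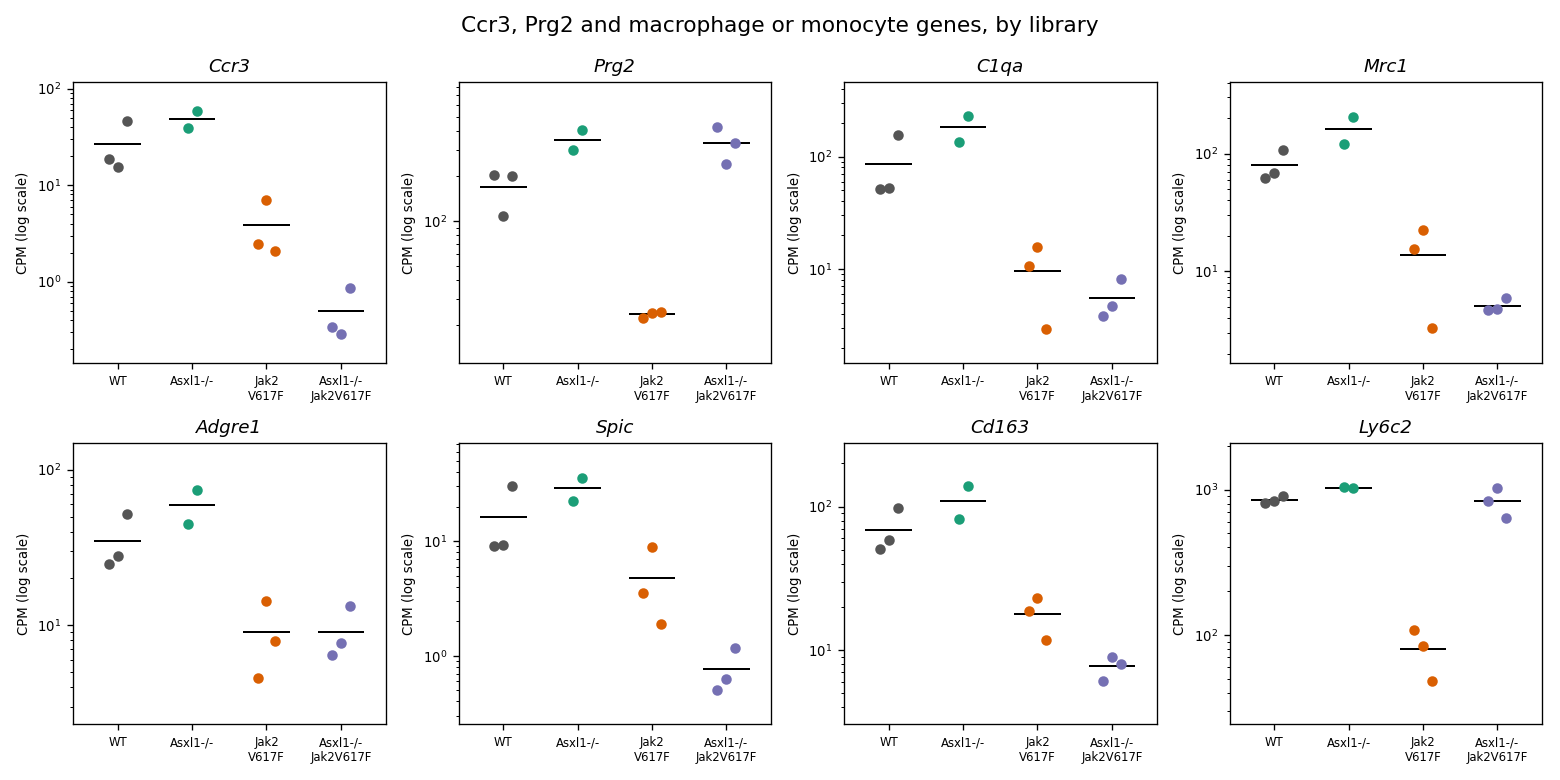
CPM (log axis) of Ccr3, Prg2, the macrophage genes C1qa, Mrc1, Adgre1, Spic and Cd163 and the monocyte gene Ly6c2 in each of the 11 libraries (points; bars are genotype means). Ccr3, Spic and Cd163 are lowest in the 3 Asxl1-/-Jak2V617F libraries, where Prg2 (239.7 to 429 CPM) is above its 3 WT libraries. Spic and Cd163 were picked for their correlation with Ccr3. C1qa, Mrc1 and Adgre1, which come from the marker list, overlap between Asxl1-/-Jak2V617F and Jak2V617F (C1qa 3.81 to 8.18 and 2.90 to 15.5 CPM).

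Markers of other granulocytes moved with the 8 genes. In Jak2V617F against WT, 8 of 8 primary granule markers, 10 of 10 late neutrophil markers and 6 of 9 tested mast cell and basophil markers fell, and 8 of 10 erythroid markers rose, where 29.2% of all genes tested fell and 24.4% rose. With Asxl1 also lost, 8, 10 and 6 of them rose against Jak2V617F and 8 erythroid markers fell, where 24.5% of all genes tested rose and 19.8% fell. Summed primary granule markers were at 786 to 1341 CPM in Jak2V617F and 10720 to 22440 CPM elsewhere, late neutrophil markers at 1899 to 5107 and 24770 to 55480 CPM, and mast cell and basophil markers at 34.4 to 57.1 and 258 to 484 CPM. Only Tpsab1, a mast cell tryptase gene, was at 0 in every genotype. Summed erythroid markers were at 5508 to 6407 CPM in Jak2V617F and 1346 to 3179 CPM elsewhere. The part of these cell types in the result was not tested.

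Of 16 transcription factors of the lineage, 9 fell and 3 rose in Jak2V617F against WT, where 29.2% of all genes tested fell and 24.4% rose. With Asxl1 also lost, 9 rose and 3 fell against Jak2V617F, where 24.5% of all genes tested rose and 19.8% fell. Cebpe, the C/EBP factor of late granule genes, was at 172, 251 and 249.9 CPM in WT, 287 and 265 CPM in Asxl1-/-, 17.0, 24.3 and 9.22 CPM in Jak2V617F, and 217, 172 and 164 CPM in Asxl1-/-Jak2V617F. Jak2V617F lay far below the rest, and both Asxl1-/- libraries lay above all others. Cebpe fell by 3.73 ± 0.32 (adjusted p = 1.48e-05) in Jak2V617F against WT and rose by 3.45 ± 0.32 (adjusted p = 2.86e-05) with Asxl1 loss on that background. Cebpa fell by 2.82 ± 0.26 and rose by 3.26 ± 0.27, Spi1 (PU.1) fell by 2.08 ± 0.16 and rose by 2.26 ± 0.16, and Nfil3, a factor of type 2 immune cells and eosinophils, fell by 2.35 ± 0.14 and rose by 2.59 ± 0.14.

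Gata1, shared by the eosinophil, erythroid and megakaryocyte lineages, went the other way. It was at 100, 62.8 and 84.6 CPM in WT, 108 and 91.0 CPM in Asxl1-/-, 229, 203 and 242 CPM in Jak2V617F, and 65.8, 80.3 and 119.5 CPM in Asxl1-/-Jak2V617F. Gata1 rose by 1.44 ± 0.22 in Jak2V617F against WT (adjusted p = 0.00039) and fell by 1.34 ± 0.22 with Asxl1 loss on that background (adjusted p = 0.000851). Gata2 fell by 0.43 ± 0.16 in Jak2V617F against WT (adjusted p = 0.0369), a call lost in 11 of 18 alternatives, among them those without Asxl1-/-Jak2V617F 1 or 2, Jak2V617F 1 or 3, either Asxl1-/- library or WT 1.

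**Figure D4:**
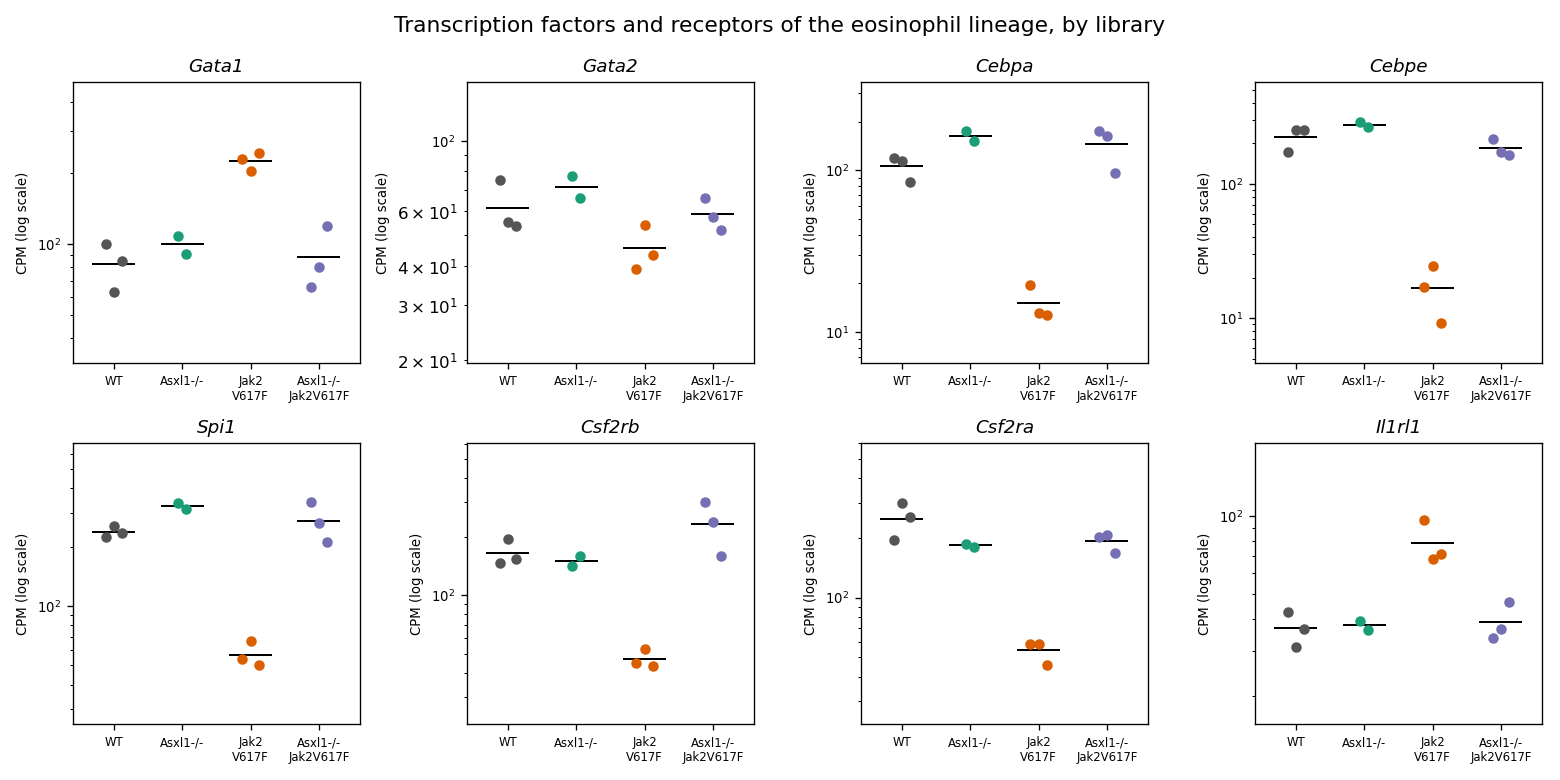
CPM (log axis) of 5 transcription factors and 3 receptor genes of the eosinophil lineage in each of the 11 libraries (points; bars are genotype means). Cebpa, Cebpe, Spi1, Csf2rb and Csf2ra are lowest in Jak2V617F, where Gata1 (203 to 242 CPM) and Il1rl1 (68.3 to 96.6 CPM) are highest.

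Of 18 genes of interleukin-5, interleukin-3, GM-CSF and eotaxin signalling, 12 were tested. In Jak2V617F against WT 5 fell and 4 rose, not far from the shares over all genes tested (29.2% fell, 24.4% rose). In Asxl1-/-Jak2V617F against Jak2V617F 6 rose and 3 fell, beside 24.5% and 19.8% of all genes tested. Csf2rb, the beta chain that Il5ra needs to signal, was at 147, 194 and 154 CPM in WT, 141 and 159.6 CPM in Asxl1-/-, 44.6, 52.8 and 43.4 CPM in Jak2V617F, and 301, 239 and 159.8 CPM in Asxl1-/-Jak2V617F. It fell by 1.81 ± 0.21 in Jak2V617F against WT (adjusted p = 5.27e-05) and rose by 2.31 ± 0.21 with Asxl1 loss on that background (adjusted p = 1.48e-05). The GM-CSF and interleukin-3 receptor alpha chains moved alike: Csf2ra fell (adjusted p = 1.37e-06) and rose by 1.83 ± 0.16, and Il3ra fell by 2.04 ± 0.23 and rose (adjusted p = 1.81e-05). Il1rl1, the interleukin-33 receptor, rose by 1.11 ± 0.16 in Jak2V617F against WT (adjusted p = 0.000169) and fell by 1.02 ± 0.16 in the other comparison (adjusted p = 0.000406). The ligand genes Il5, Il3 and Ccl11 had 0 counts in all 11 libraries, and Ccl24 had at most 3 in any.

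Of the other lipid mediator genes, 9 were tested beside Alox15; 8 fell in Jak2V617F against WT (29.2% of all genes tested) and 6 rose in Asxl1-/-Jak2V617F against Jak2V617F (24.5% of all genes tested). Alox5, the 5-lipoxygenase of leukotriene synthesis, fell by 3.65 ± 0.22 (adjusted p = 8.45e-07) and rose by 2.998 ± 0.217 (adjusted p = 2.94e-06). Its partner Alox5ap fell by 2.11 ± 0.19 and rose by 2.08 ± 0.19, Lta4h (leukotriene A4 hydrolase) fell by 2.29 ± 0.13 and rose by 2.13 ± 0.13, and Ptgs1 (cyclooxygenase-1) fell by 3.48 ± 0.27 and rose by 3.14 ± 0.27. Alox12e, the neighbour of Alox15, is among both the falls and the rises but did not exceed 0.675 CPM in any library. It had 0 counts in each Jak2V617F library, 5, 12 and 9 in WT, and 9, 5 and 9 in Asxl1-/-Jak2V617F. Alox12, also among the falls, had 2, 10 and 5 counts in Jak2V617F and 11, 45 and 45 in WT.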

How the data were processed

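Counts per Ensembl gene were deposited by the authors in 1 table of 11 RNA-seq libraries. Without giving roles, the notes of the submitters on processing list the mm10 genome, featureCounts 1.5.0-p3, HISAT2 2.0.5 and DESeq2 1.16.1; the sources used here state no strand or multimapping setting. The 10 chromatin samples of the 21 in the series were not analysed here. Groups are the genotype labels. Chi-square per degree of freedom between replicates was 7.75 to 33.1, above the 1 of sampling noise, so no pair looked like a repeat deposit of 1 library; this does not show that libraries came from separate mice.

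All 11 libraries entered 1 fit with genotype as the factor: edgeR 4.0.16 (R 4.3.3), filterByExpr by group, TMM scaling, robust quasi-likelihood tests, and Benjamini-Hochberg adjustment over 16262 genes with a threshold of 0.05. "Rose", "fell" and "called" mean an adjusted p under it. A standard error is the absolute log2 fold change over the square root of the F statistic. CPM are computed from the counts, and correlations use log2(CPM + 0.5). The test was tried on simulated counts with known changes in a small share of genes, unlike the wide changes here. No conclusion is drawn from that trial. The common biological coefficient of variation was 19.7%.

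Members and lists were chosen with earlier results of these data known. Named genes are the 10 members and, per other list, up to 4 genes of smallest adjusted p in Jak2V617F against WT. Gata1, Gata2, Cebpa, Cebpe, Csf2rb and Il1rl1 are always named. Nearest protein-coding neighbours and the 10 genes outside the members most correlated with Prg2 are also named. The macrophage genes that fell and those most like Ccr3 were chosen after their values were seen. Promoters are the 250 bases before RefSeq starts. The fit was repeated with DESeq2 1.42.0, with scaling by median of ratios, no filter, a stricter filter (CPM of 1 in 3 libraries), the compared groups alone, a replicate block, a sex term (Y-linked reads above 10 CPM) and each library left out. Only the Jak2V617F genotype mixes libraries with and without such reads, so the sex term is set within it.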

Additional observations from a re-analysis of the deposited data

Results flagged for a closer look

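For 9 of the 10 genes the effect of Asxl1 loss differed between the Jak2V617F and the WT background, by the interaction term of edgeR's fit over all genes. Of all genes tested, 23.7% were called higher and 17.9% lower by this term. On the log2 scale the difference was 2.79 for Prg2, 3.10 for Prg3 and 3.66 for Epx among the granule genes. It was 2.40 for Ear1, 1.66 for Ear2 and 2.96 for Ear6 among the ribonucleases. Ear2 and Ear1 had the lowest positive values of the 9, but Ear1 (2.40 ± 0.77) did not differ from Prg2 (2.79 ± 0.42) beyond its standard error. The difference was 2.84 for Siglecf and 3.49 for Alox15. Ccr3 alone had a negative value, -3.85, with mean levels of 48.6 ± 14.0 CPM (SD, n = 2) in Asxl1-/-, 26.6 ± 16.7 CPM (n = 3) in WT, 3.86 ± 2.78 CPM (n = 3) in Jak2V617F and 0.492 ± 0.315 CPM (n = 3) in Asxl1-/-Jak2V617F. With a sex term 4 of the 9 calls were left, and the call of Ear1 was kept in 6 of 17 alternatives.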

How the results depend on the processing

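Of 1070 member values under the alternatives, 961 kept their direction and side of the threshold, 70 lost a call, 6 gained one and 33 changed sign, the last only where the gene had no call. In Jak2V617F against WT 9 genes were called throughout. The count in Asxl1-/-Jak2V617F against Jak2V617F was 9 throughout, and 8 to 9 with single libraries left out. In Asxl1-/- against WT it was 3, with DESeq2 5, no filter 1, the groups alone 1, a sex term 0, and 0 to 3 leaving out libraries. It was 4 in Asxl1-/-Jak2V617F against WT, with DESeq2 5, no filter 1, the groups alone 1, a sex term 2, and 1 to 4 leaving out libraries. It was 2 in Asxl1-/-Jak2V617F against Asxl1-/-, with no filter 1, the groups alone 1, a sex term 0, and 1 to 2 leaving out libraries. For the interaction it was 9, with no filter 8, a sex term 4, and 8 to 9 leaving out libraries. The cause was not tested.

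The labels do not say that replicate numbers pair the samples. Over 15 same-numbered pairs the correlation of deviations from the genotype mean was -0.233 to 0.218, and 5 exceeded 0.1. With so few libraries in a genotype these deviations constrain one another, so the values cannot decide whether the samples are paired. With a replicate block 5 genes were called in Asxl1-/- against WT and 5 in Asxl1-/-Jak2V617F against WT, and the other counts did not move. Signs changed with the block for Alox15 in Asxl1-/- against WT (0.44) and, in Asxl1-/-Jak2V617F against Asxl1-/-, for Epx (-0.0504), Ear6 (-0.135) and Alox15 (-0.31). With a sex term they changed for Ccr3 in Asxl1-/- against WT (-0.77), for Prg3 (0.105), Epx (-0.35) and Il5ra (-0.0465) in Asxl1-/-Jak2V617F against Asxl1-/-, and for Il5ra in the interaction (-0.65).

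With single libraries left out, log2 values without a call crossed 0. In Jak2V617F against WT the range was Il5ra -0.3741 to 0.8767. In Asxl1-/- against WT the range was Alox15 -0.3016 to 0.4282. In Asxl1-/-Jak2V617F against WT the range was Ear2 -0.1538 to 0.2626, Il5ra -0.4769 to 0.1946 and Alox15 -0.4475 to 0.6628. In Asxl1-/-Jak2V617F against Jak2V617F the range was Il5ra -1.0813 to 0.1298. In Asxl1-/-Jak2V617F against Asxl1-/- the range was Prg2 -0.2856 to 0.1708, Prg3 -0.4365 to 0.3106, Ear1 -0.3944 to 0.0952, Ear6 -0.1891 to 0.3834 and Alox15 -0.4194 to 0.6357. In the interaction the range was Il5ra -0.3737 to 0.8770. Among 1456 values of named genes outside the 10, all past the threshold, 1366 kept the call, 90 lost it and 0 changed sign; these were added after seeing the data.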
